A study of Mus musculus with 4 samples.

Results

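The cytochrome P450 enzymes were taken as the genes with a symbol that begins with Cyp and a digit and with a protein-coding biotype, 49 of the 25806 genes in the deposited tables, and 5 P450 pseudogenes were left out. They are heme proteins that use molecular oxygen to hydroxylate or otherwise oxidise fat-soluble molecules. They take electrons from a P450 reductase in the endoplasmic reticulum or from a ferredoxin in mitochondria. Some families clear drugs and other foreign compounds, mostly in liver and gut, and others make or break down steroid hormones, sterols, bile acids, vitamin D, retinoic acid and fatty acids. In a mammary gland, which holds milk-making and hormone-sensing epithelium, fat, fibroblasts, vessels and immune cells, these messages can come from several of those cell types.

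Messenger RNA was sequenced from mammary glands of female mice that carried the MMTV-PyMT transgene, in which the mouse mammary tumour virus promoter drives the polyomavirus middle T antigen mainly in mammary epithelium. The mice had a mixed C57BL/6 background and the controls were littermates, and glands were taken when hyperplastic. Control libraries (n = 2) came from MMTV-PyMT mice without the knockout, and knockout libraries (n = 2) from MMTV-PyMT mice with a knockout of miR-9 exon 1, so that every library carries the transgene. The labels do not give the age, the miR-9 gene that was deleted or whether the knockout was homozygous, and the level of miR-9 was not analysed here.

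Values are normalised read counts, that is reads per gene divided by 1 scaling factor per library, and they summed to between 15904798 and 16418668 per library. The P450 genes held between 0.0322% and 0.0382% of each sum. Control 2 was further from the knockouts than control 1 was, with correlations of log2 values across genes of 0.953 and 0.96 to them. It correlated at 0.973 with control 1, and the pairs without control 2 lay between 0.971 and 0.978. Epithelial markers were plentiful in every library, at 86369 to 97080 for the sum of 10 luminal genes. In bulk tissue, fewer cells of a type and less message per cell cannot be told apart.

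Of the 49 P450 genes, 42 had a value of at least 1 in at least 2 libraries and were tested, and 18 had a mean of at least 50. In a limma fit across all 22455 genes that passed this filter, 1 P450 gene, Cyp3a57, differed between the genotypes after Benjamini-Hochberg adjustment, and it was higher in the knockouts. Over all genes tested, 0.583% passed the same threshold, an adjusted p of 0.05, with 0.414% higher and 0.169% lower. At an unadjusted p under 0.05 there were 7 P450 genes higher and 3 lower, where 10.3% and 7.66% of all genes tested did so. Both knockouts lay above both controls for 13 P450 genes and below them for 9, against 25.5% and 25.6% of all genes tested (51.2% in either direction), and for the other 20 the groups overlapped. The 7 genes not tested (Cyp8b1, Cyp2c55, Cyp2d26, Cyp2j8, Cyp2b23, Cyp4a14 and Cyp4f15) had values from 0 to 5.98. The median log2 fold change of the 18 genes with a mean of at least 50 was 0.32, beside -0.039 for the 13057 genes of the whole table at that level. The 49 P450 genes summed to 5564 and 5294 in controls 1 and 2 and to 6072 and 5247 in knockouts 1 and 2, so that the summed level of knockout 2 lay just under both controls.

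**Figure D1:**
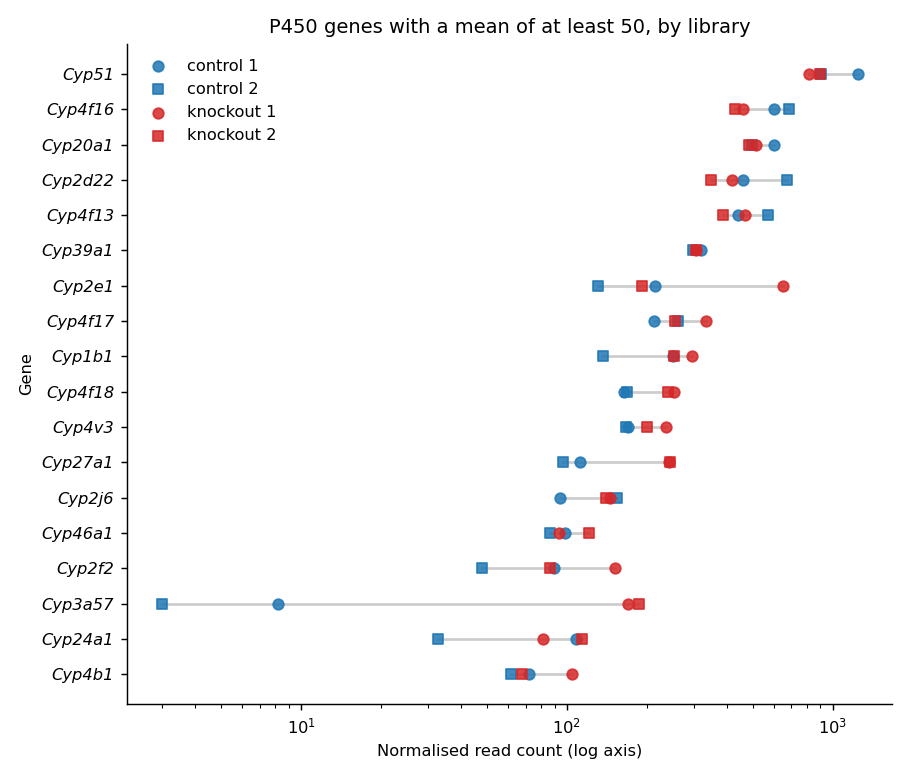
Normalised read counts (log axis) of the 18 P450 genes with a mean of at least 50, 1 row per gene, with blue points for the controls and red points for the knockouts (circles replicate 1, squares replicate 2), and a grey line over the range. Cyp3a57 goes from 8.22 and 2.99 in the controls to 169 and 186 in the knockouts, and in 10 of the 18 genes the groups overlap.

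The Cyp3a enzymes oxidise many drugs and steroids in liver and gut, and in the mouse most of their genes lie in a cluster on chromosome 5. Cyp3a57 (ENSMUSG00000070419, GRCm38 chromosome 5, 145345279 to 145390926, plus strand) stands at an end of that cluster. Since related copies can take each other's reads, its coding sequence was compared with those of the 8 other Cyp3a protein-coding genes of the GENCODE M21 annotation. Identity was highest with Cyp3a59, at 94.2% over 1512 coding bases, then with Cyp3a25 at 93.9%, and it was 74.2% to 76.1% with the other 6, among them Cyp3a13. The following stretch, coding bases 1091 to 1150, is the window of 60 bases in which Cyp3a57 and Cyp3a59 differ most, and capitals mark its 10 differences. It is shown because differences such as these are what lets a read be assigned to 1 of the copies.
Cyp3a57: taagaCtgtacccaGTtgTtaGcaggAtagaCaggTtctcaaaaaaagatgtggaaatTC
Cyp3a59: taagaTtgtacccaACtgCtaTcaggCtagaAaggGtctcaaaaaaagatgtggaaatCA
Of all stretches of 50 bases in the transcripts of Cyp3a57, 8.63% also occur in a transcript of another gene, most often Cyp3a59. In that part of the sequence a read cannot be assigned to 1 copy, and the authors' handling of such reads is not given in the sources used here. For Cyp3a13 no stretch of 50 bases was shared.

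The promoters of the tested Cyp3a genes are shown since Cyp3a genes are known targets of nuclear receptors, among them the xenobiotic receptor PXR, which binds repeats of AGGTCA. Sequences run from 250 bases before to 50 bases after the transcript start in RefSeq (build GRCm38.p6), and 37 of the 49 P450 genes were matched to that table. Capitals mark matches on either strand to AGGTCA (nuclear receptors), TGTTCT (steroid receptors such as the progesterone and glucocorticoid receptors), GCGTG (the Ah receptor), CCAAT and TATAAA, and no match overlaps another. The inverted repeats bound by steroid receptors and by the estrogen receptor were also searched and had no match here.
Cyp3a57, chr5:145345019-145345318, plus strand: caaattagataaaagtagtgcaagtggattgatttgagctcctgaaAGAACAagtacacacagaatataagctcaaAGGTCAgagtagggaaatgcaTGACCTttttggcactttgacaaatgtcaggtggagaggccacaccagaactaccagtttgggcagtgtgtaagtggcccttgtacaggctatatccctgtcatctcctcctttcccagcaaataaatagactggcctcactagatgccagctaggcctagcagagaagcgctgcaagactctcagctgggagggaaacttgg
Cyp3a13, chr5:137921570-137921869, minus strand: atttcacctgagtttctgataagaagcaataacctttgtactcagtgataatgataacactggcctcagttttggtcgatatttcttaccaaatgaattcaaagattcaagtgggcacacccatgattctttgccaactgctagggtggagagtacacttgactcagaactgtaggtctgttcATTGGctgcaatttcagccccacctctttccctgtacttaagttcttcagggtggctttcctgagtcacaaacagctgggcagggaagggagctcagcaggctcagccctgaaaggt
The Cyp3a57 window holds AGGTCA 2 times, on opposite strands, with the matches starting 174 and 153 bases before the transcript start, and TGTTCT once, on the reverse strand, 204 bases before it. The Cyp3a13 window holds none of these and a CCAAT match 67 bases before the start. Over all 32851 promoters in the table, 16.3% held AGGTCA, 19% TGTTCT, 32.4% GCGTG, 37.4% CCAAT and 13.6% TATAAA. Among the 37 P450 genes, 6 held AGGTCA, 10 TGTTCT, 12 GCGTG, 21 CCAAT and 10 TATAAA. These counts are of genes, some with several promoters, while the shares are of promoters. These matches describe the letters in the window and not binding.

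Cyp3a57 had normalised read counts of 8.22 and 2.99 in controls 1 and 2 and of 169 and 186 in knockouts 1 and 2. Both knockouts were far above both controls, and the spread within each group was small beside the gap. The means were 5.60 ± 3.70 and 178 ± 12.3 (SD, n = 2), a ratio of 31.7. The log2 fold change was 4.88 (SE 0.49, 95% interval 3.75 to 6.01, limma adjusted p = 0.0125). Per kilobase of gene length, Cyp3a57 was the 32nd highest of the 49 P450 genes in the controls, at a level of 2.81, and the 11th in the knockouts, at 89.2. With knockout 1 left out, or knockout 2, the fold was 4.95 and 4.81 on the log2 scale, and the limma adjusted p was 0.732 and 0.551, in fits in which no gene of the whole table passed.

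Cyp3a13 (chromosome 5, 137892932 to 137921619), a Cyp3a gene outside the cluster that is also active beyond the liver, was the other listed Cyp3a gene. It was listed at 0 in both controls and had 2.98 and 14.6 in the knockouts. Both knockouts were above the controls, but the values are low, and the difference did not pass the threshold (log2 fold change 2.98, SE 0.92, limma adjusted p = 0.156). The log2 ratio of Cyp3a57 to Cyp3a13, with 1 added to each, was 3.20 and 2.0 in control and 5.42 and 3.59 in knockout libraries. The ratio was higher by 1.90 in the knockouts (exact two-sided permutation p = 0.333, the smallest that 2 against 2 libraries can give). With 0.1 added in place of 1 it was lower by 0.94 in the knockouts (-0.94, exact permutation p = 0.667), so the direction of this difference depends on the pseudocount. The pseudogene Cyp3a63-ps, within the cluster, had at most 0.996 in a library.

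Of 15 other tested genes that reach within 500 kb of Cyp3a57, 0 passed the threshold in limma, and their log2 fold changes lay between -0.35 for Zkscan5 and 0.20 for the gene model Gm42636. At an unadjusted p under 0.05 there was 1, Pdap1, at -0.28, beside 18% of all genes tested. The nearest tested protein-coding neighbour, the zinc finger gene Zscan25, had 290 and 323 in control and 275 and 271 in knockout libraries. All of these lie on 1 side of Cyp3a57, and on its other side, where the Cyp3a cluster begins, the window held no other tested gene.

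**Figure D2:**
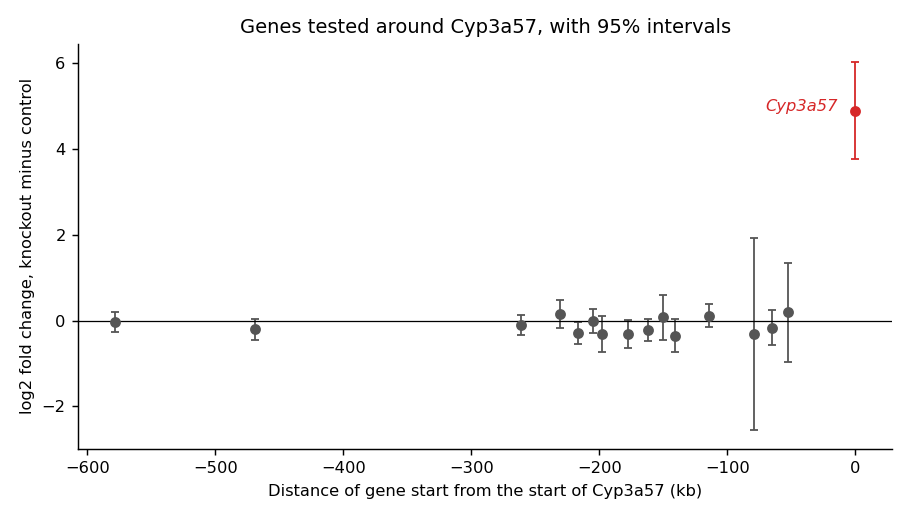
The log2 fold change (knockout minus control) of each tested gene that reaches within 500 kb of Cyp3a57, against the distance of its start from that of Cyp3a57 in kb, with 95% intervals from the limma fit. Cyp3a57, in red, lies at 4.88, and the 15 neighbours, in grey, lie between -0.35 and 0.20.

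Markers of the organs in which Cyp3a genes are most active were low or not listed, apart from the fibrinogen gene Fgb. Of 8 enterocyte markers 5 were not listed and 3 summed to between 27.2 and 58.8 per library. Of 10 hepatocyte markers 8 were listed. The defining hepatocyte gene Alb, which encodes albumin, had 3.08 and 1.99 in control and 28.9 and 8.74 in knockout libraries, while the apolipoprotein gene Apoa1 and the urea cycle gene Cps1 had at most 1.99 in a library. The hepatocyte sum was 732 and 380 in control and 1390 and 2596 in knockout libraries, of which the fibrinogen gene Fgb gave 703, 295, 1337 and 2562 in the same order. Without Fgb, a choice made after its values were seen, the other 7 summed to 28.8 and 84.7 in control and 52.7 and 34 in knockout libraries, which overlap. This overlap rests on Hpx in control 2, at 58.8, where it had 5.14 in control 1 and 7.96 and 5.83 in knockout libraries. Of the 6 hepatocyte markers tested, 3 had a positive log2 fold change, Alb at 2.29, Fgb at 2.02 and Ahsg at 0.86. The other 3 had a negative one, Hpx at -1.29, Apoa2 at -0.68 and Tat at -0.11. The unadjusted p was under 0.05 for Alb and Fgb, beside 18% of all genes tested, and their limma adjusted p was 0.167 and 0.248. The sum of 10 hormone-sensing luminal markers was higher in the knockouts, at 8104 and 4988 in control and 16632 and 16355 in knockout libraries. Of these 10, 9 had both knockouts above both controls and 3 passed the threshold as higher (Pgr, Cited1 and Esr1). The shares over all genes tested were 25.5% and 0.414%. Both knockouts also lay above both controls for 7 of 10 B and plasma cell and 7 of 9 basal and myoepithelial markers. They lay below for 7 of 10 general luminal and 5 of 10 secretory luminal markers. The part of any of these markers in the rise of Cyp3a57 was not tested. Nr1i2, which encodes PXR, had 13.4 and 15.9 in control and 0.995 and 9.71 in knockout libraries (log2 fold change -1.75, SE 0.84, limma adjusted p = 0.316). The related receptor gene Nr1i3 had at most 1.99 in a library.

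Cyp1 enzymes act on polycyclic hydrocarbons and on estrogens and are induced through the Ah receptor. Cyp1b1, which hydroxylates estradiol and is active in breast tissue and in fibroblasts, had 252 and 137 in control and 296 and 253 in knockout libraries. Control 1 lay just under knockout 2 and control 2 was far lower. The log2 fold change was 0.56 (SE 0.30, 95% interval -0.13 to 1.25, limma adjusted p = 0.355), it was 1.00 without control 1 (limma adjusted p = 0.0339) and 0.12 without control 2. The fibroblast markers had the same low library, with sums of 33067 and 17056 in control and 46000 and 30960 in knockout libraries. This was not particular to them, as control 2 was also lowest for the adipocyte, endothelial, macrophage, B and plasma cell and basal sums. It was highest for the general and secretory luminal sums. The part of any of these cell types in the level of Cyp1b1 was not tested. Cyp1a1, the classic Ah receptor target, had at most 2.98 in a library. Ahr, the receptor gene, was lower in both knockouts, at 1598 and 1609 against 2131 and 1895 (log2 fold change -0.33, limma adjusted p = 0.177).

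Steroid hormone synthesis was represented by Cyp17a1, which makes androgen precursors, and Cyp21a1, the 21-hydroxylase of corticoid synthesis. Both were low and both were lower in the knockouts, with no overlap between the groups. Cyp17a1 had 46.2 and 45.8 in control and 30.8 and 19.4 in knockout libraries (log2 fold change -0.88, SE 0.41, limma adjusted p = 0.305). Cyp21a1 had 39 and 39.9 in control and 18.9 and 11.7 in knockout libraries (log2 fold change -1.35, SE 0.45, limma adjusted p = 0.18). Neither passed the threshold. Of the 50-base stretches of Cyp21a1, 21.3% also occur in another gene, most often the pseudogene Cyp21a2-ps, which had 8.22 and 4.98 in control and 0 and 4.86 in knockout libraries. The cholesterol carrier gene Star, which feeds the first step of steroid synthesis, had 86.3 and 116 in control and 102 and 78.7 in knockout libraries, so its groups overlapped. Among 11 tested partner genes of steroid synthesis 0 passed in limma (4 at an unadjusted p under 0.05, beside 18% of all genes tested). Those with the smallest p were the 5-alpha-reductase genes Srd5a1, at -0.68 (limma adjusted p = 0.144), and Srd5a2, at 2.44 (limma adjusted p = 0.158). Srd5a1 had 261 and 316 in control and 180 and 177 in knockout libraries. Srd5a2 was low, at 1.03 and 1.99 in control and 6.96 and 21.4 in knockout libraries.

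Among the 6 sterol, oxysterol and bile acid genes, 5 were tested and 0 passed in limma. The unadjusted p was under 0.05 for 1 of them, beside 18% of all genes tested. That gene, Cyp27a1, the mitochondrial sterol 27-hydroxylase of bile acid synthesis, which macrophages also use to make an oxysterol, had 112 and 96.6 in control and 242 and 245 in knockout libraries. The groups were well apart, at 104 ± 10.8 and 243 ± 2.12 (SD, n = 2), a ratio of 2.33. The log2 fold change of 1.22 (SE 0.23, 95% interval 0.69 to 1.74) had a limma adjusted p of 0.0641, which was 0.0438 with no filter on low values and 0.0169 without control 1. Its lowest and highest log2 fold changes over the 11 settings tried were 1.05 and 1.32, with limma adjusted p from 0.0169 to 0.732. Macrophage markers were higher in the knockouts, with a sum of 18797 and 15199 in control and 26153 and 22018 in knockout libraries. Both knockouts lay above both controls for 9 of 10 of these genes, against 25.5% of all genes tested. The same held for 9 of 10 hormone-sensing luminal and 7 of 10 B and plasma cell markers, and the reverse for 7 of 10 general luminal markers. The part of any of these cell types in the level of Cyp27a1 was not tested.

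Cyp7b1, an oxysterol hydroxylase that with Ch25h makes the ligand of the lymphocyte receptor Gpr183, had 27.7 and 25.9 in control and 47.8 and 46.6 in knockout libraries. Its groups did not overlap, and its log2 fold change of 0.79 (SE 0.37) had a limma adjusted p of 0.309. The cholesterol hydroxylase gene Ch25h, which is not a P450, went the other way, at 49.3 and 59.8 against 38.8 and 38.8 (log2 fold change -0.47, limma adjusted p = 0.505). Gpr183 had 37.0 and 26.9 in control and 101 and 58.3 in knockout libraries (log2 fold change 1.26, limma adjusted p = 0.171). B and plasma cell markers, a type that carries this receptor, summed to 5959 and 3518 in control and 22272 and 12818 in knockout libraries, and their part was not tested. Among 9 tested oxysterol and bile acid partners 0 passed in limma (2 at an unadjusted p under 0.05, beside 18% of all genes tested).

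Cyp51, the lanosterol demethylase of cholesterol synthesis, had 1242 and 903 in control and 813 and 896 in knockout libraries. Both knockouts were lower, but control 2 lay next to knockout 2, and the log2 fold change was -0.31 (SE 0.16, limma adjusted p = 0.349). Cyp39a1, which hydroxylates an oxysterol on the way to bile acids, had 318 and 298 in the controls and 305 in each knockout. Its log2 fold change was -0.013 with a 95% interval of -0.40 to 0.37. Cyp46a1, the cholesterol 24-hydroxylase best known from neurons, had 98.6 and 86.7 in control and 93.5 and 121 in knockout libraries, with overlap, and Cyp8b1, of bile acid synthesis, had at most 2.98.

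All 3 vitamin D genes overlapped between the genotypes. Cyp24a1, which degrades active vitamin D, had 108 and 32.9 in control and 81.6 and 114 in knockout libraries. Control 1 lay between the knockouts and control 2 was far lower, and the log2 fold change was 0.68 (SE 0.55, limma adjusted p = 0.548). It was 1.52 without control 1 (limma adjusted p = 0.0448) and -0.16 without control 2. The vitamin D activating gene Cyp27b1 had values from 0.995 to 15.9 and the 25-hydroxylase gene Cyp2r1 from 9.25 to 16.9, both with overlap. Vdr, the vitamin D receptor gene, was lower in both knockouts, at 1608 and 1711 against 2035 and 2549 (log2 fold change -0.46, SE 0.13, limma adjusted p = 0.132). Among 19 tested receptor genes known to control P450 genes 0 passed in limma. For 2 of them, Vdr and Ahr, the unadjusted p was under 0.05, beside 18% of all genes tested.

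Cyp26 enzymes break down retinoic acid. Cyp26a1, itself a retinoic acid target in many cells, had 51.4 and 44.8 in control and 22.9 and 29.1 in knockout libraries. The groups did not overlap, and the log2 fold change of -0.87 (SE 0.38, 95% interval -1.76 to 0.02) had a limma adjusted p of 0.285. Cyp26b1 had close values, at 24.7 and 23.9 in control and 26.9 and 27.2 in knockout libraries, and Cyp26c1 had at most 2.99. Of all genes tested 0.583% passed the threshold, and among 11 tested retinoid partner genes 1 did. This was Aldh1a1, which encodes a retinaldehyde dehydrogenase of retinoic acid synthesis. It had 134 and 67.8 in control and 442 and 527 in knockout libraries, with a log2 fold change of 2.33 and an SE of 0.32 (limma adjusted p = 0.0309). The retinoic acid binding gene Crabp2 was at -0.43 (limma adjusted p = 0.0991).

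**Figure D3:**
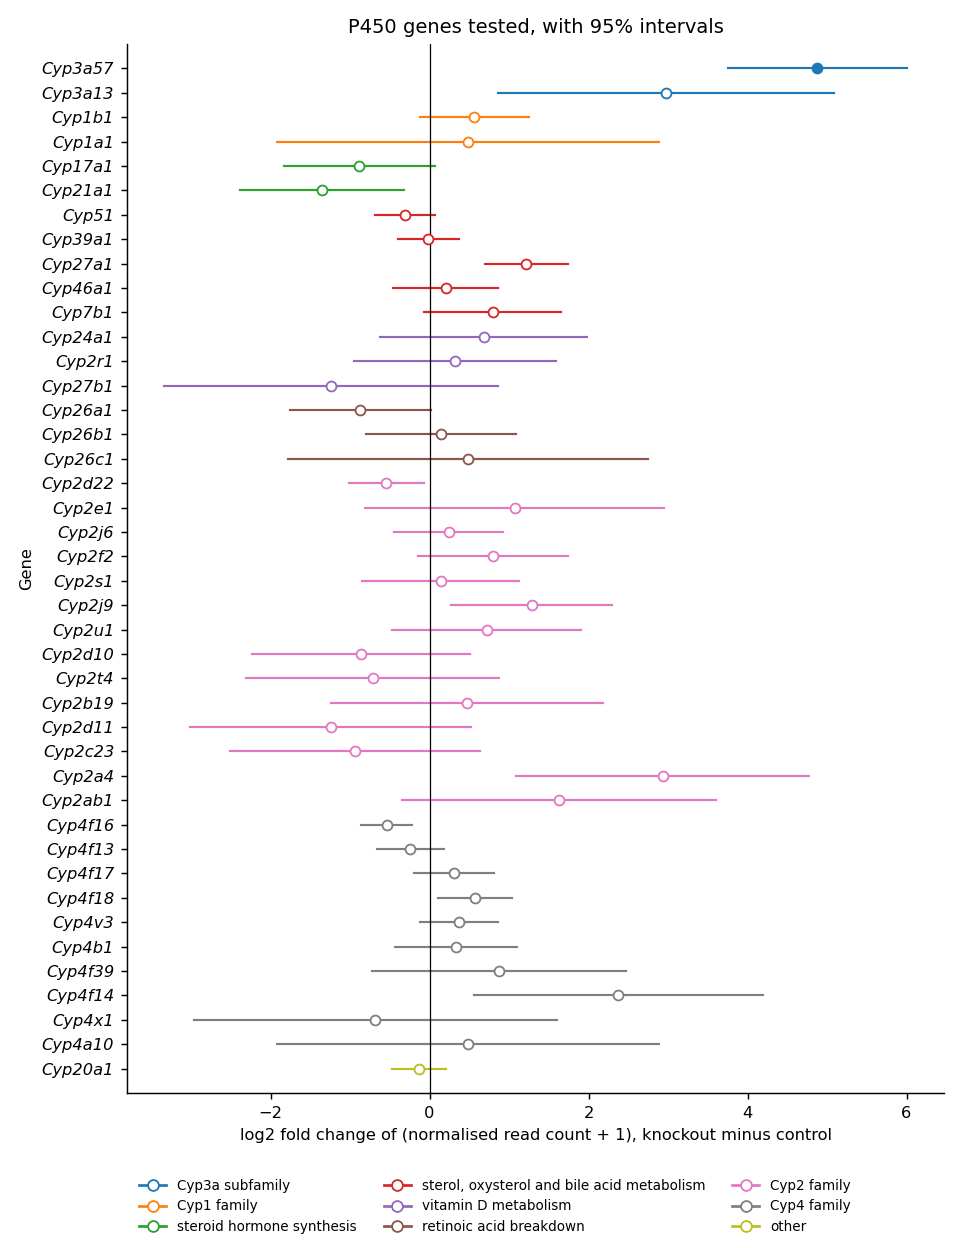
The log2 fold change (knockout minus control) of the 42 tested P450 genes with 95% intervals from the limma fit, coloured by role group, with a filled point where the adjusted p was under 0.05. Cyp3a57 is the filled point at 4.88, and the log2 fold changes of the others run from -1.35 for Cyp21a1 to 2.98 for Cyp3a13.

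The Cyp2 family, with 18 listed genes besides Cyp2r1, holds enzymes of drug clearance and of arachidonic acid epoxidation. Of the 14 tested, 4 had both knockouts above both controls and 4 had both below, against 25.5% and 25.6% of all genes tested. In limma 0 passed, and 3 had an unadjusted p under 0.05 (Cyp2a4, Cyp2j9 and Cyp2d22), beside 18% of all genes tested. Cyp2d22, the mouse relative of the human drug enzyme CYP2D6, had 461 and 671 in control and 418 and 348 in knockout libraries (log2 fold change -0.54, SE 0.20, limma adjusted p = 0.225), and without control 1 it passed at -0.81 (limma adjusted p = 0.0346). Its cluster neighbours on chromosome 15, Cyp2d10 and Cyp2d11, were also lower in both knockouts but at 14.4 or less, and 35.8% and 37.2% of their 50-base stretches occur in other genes, most often in each other.

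Cyp2e1, which oxidises ethanol and small solvents and is active in fat as well as in liver, had 214 and 132 in control and 652 and 191 in knockout libraries. Knockout 1 was higher than the other libraries and knockout 2 lay within the range of the controls. The log2 fold change of 1.07 (SE 0.68, 95% interval -0.81 to 2.95, limma adjusted p = 0.477) was 0.19 without knockout 1 and 1.95 without knockout 2. Cyp2f2, an airway enzyme that activates naphthalene, had 89.4 and 47.8 in control and 151 and 86.4 in knockout libraries, with knockout 1 again the highest (limma adjusted p = 0.342). Of its exon bases 13.5% lie opposite exons of Gm15883, and whether strand was used in counting is not given in the sources used here. The sum of 10 adipocyte markers had the same order of libraries, at 15988 and 8525 in control and 34248 and 12412 in knockout libraries. Of the 10 markers, 4 had this order and the other 6 had both knockouts above both controls, and all 10 were highest in knockout 1 and lowest in control 2. The fibroblast and neutrophil sums had the order of the adipocyte sum as well, as did 7 of 10 fibroblast and 6 of 10 endothelial markers. The part of any of these cell types in the levels of Cyp2e1 and Cyp2f2 was not tested. The order of knockout 1, control 1, knockout 2 and control 2 from high to low was that of 3 of the 18 P450 genes with a mean of at least 50 (Cyp2e1, Cyp2f2 and Cyp4b1), or 16.7%, beside 4.01% of all genes at that level.

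Cyp2j enzymes make epoxides of arachidonic acid. Cyp2j9 had 14.4 and 12.0 in control and 33.8 and 33.0 in knockout libraries, well apart and close within each group, with a log2 fold change of 1.29 and an SE of 0.44 (limma adjusted p = 0.19). Its neighbour Cyp2j6, at 94.5 and 154 in control and 145 and 141 in knockout libraries, overlapped. The steroid hydroxylase gene Cyp2a4 was listed at 0 in both controls and had 8.95 and 4.86 in the knockouts (limma adjusted p = 0.124), and 38% of its 50-base stretches occur elsewhere, mostly in Cyp2a5. Of the remaining tested Cyp2 genes, Cyp2s1, Cyp2u1, Cyp2t4, Cyp2b19, Cyp2c23 and Cyp2ab1, none had more than 27.2 in a library or an unadjusted p under 0.05.

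Cyp4 enzymes hydroxylate the far end of fatty acids and of leukotrienes. Of 12 listed genes 10 were tested, and 0 passed in limma. An unadjusted p under 0.05 was reached by 3 (Cyp4f16, Cyp4f18 and Cyp4f14), beside 18% of all genes tested. Of the 5 tested Cyp4f genes on chromosome 17, 2 had a log2 fold change below 0 and 3 one above 0. Cyp4f16 had 604 and 685 in control and 459 and 427 in knockout libraries, without overlap (log2 fold change -0.54, SE 0.14, limma adjusted p = 0.114), and without control 1 it passed at -0.63 (limma adjusted p = 0.0386). Cyp4f13 had 439 and 573 against 467 and 386, and Cyp4f17 had 213 and 262 against 334 and 255, both with overlap. Cyp4f14 was close to 0, with 1.03 and 0 in control and 6.96 and 5.83 in knockout libraries. Of the 50-base stretches of Cyp4f16, 17.4% occur in other genes, most often Cyp4f37.

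Cyp4f18, which inactivates leukotriene B4 in neutrophils and other leukocytes of the mouse, lies apart on chromosome 8. It had 163 and 168 in control and 254 and 241 in knockout libraries, a ratio of the means of 1.49 with the groups well apart (log2 fold change 0.57, SE 0.20, limma adjusted p = 0.201). Of its exon bases 9.76% lie opposite exons of Zfp961, with the same limit on strand. Neutrophil markers, at sums of 579 and 332 in control and 619 and 522 in knockout libraries, overlapped between the groups, while those of B and plasma cells, given above, did not, and no part of either was tested. Cyp4v3, a fatty acid hydroxylase with a human counterpart, CYP4V2, that is mutated in a corneoretinal disease, had 171 and 166 in control and 237 and 201 in knockout libraries (limma adjusted p = 0.391), and 8.22% of its exon bases lie in another gene on the same strand, Gm45753. Cyp4b1 had 71.9 and 61.8 against 104 and 68.0, with overlap. Cyp4f39, an enzyme of skin lipid synthesis, had at most 18.9, and Cyp4x1 and Cyp4a10 had at most 3.99.

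**Figure D4:**
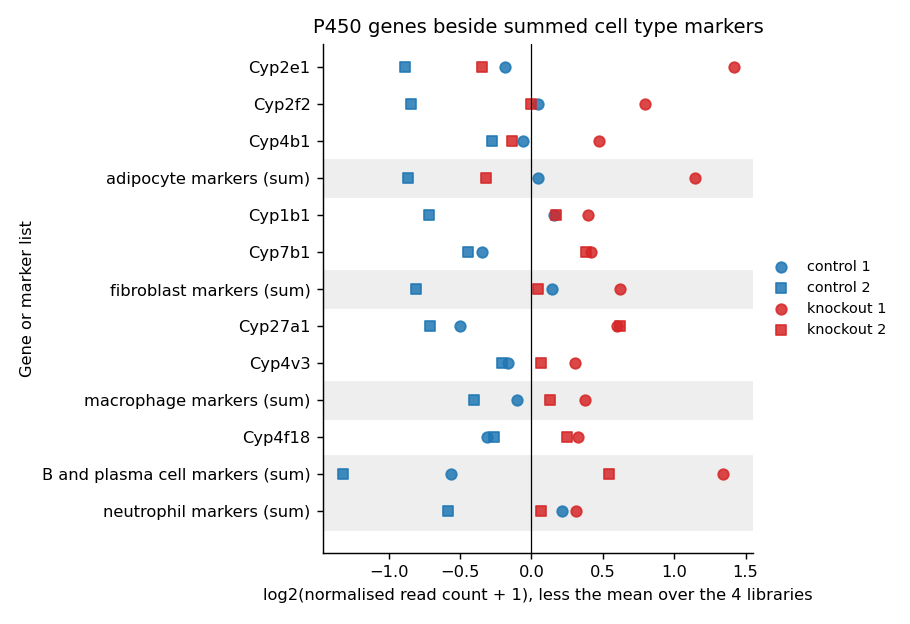
Levels of 8 P450 genes and, on grey bands, of the summed markers of 5 cell types, as log2(normalised read count + 1) less the mean over the 4 libraries, with blue points for controls and red points for knockouts (circles replicate 1, squares replicate 2). Cyp2e1 and the adipocyte sum both have knockout 1 as the highest library, at 1.42 and 1.14, and control 2 as the lowest, while Cyp27a1 has both knockouts near 0.6 (0.60 and 0.62). All 5 marker sums shown have knockout 1 as the highest library and control 2 as the lowest. Among lists not shown, the general and secretory luminal sums had control 2 as the highest library, and the basal and hepatocyte sums had knockout 2.

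Cyp20a1, a P450 of unknown substrate, had 601 and 498 in control and 514 and 484 in knockout libraries, with overlap (log2 fold change -0.13, 95% interval -0.48 to 0.21). Per kilobase of gene length it was the highest of the 49 genes over the 4 libraries, with a mean level of 229, followed by Cyp51 at 218 and Cyp4f16 at 180, and these neighbours in the order overlapped between libraries.

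P450 enzymes depend on partners that hand them electrons and on the supply of heme. Por, the reductase of the endoplasmic reticulum, had 689 and 652 in control and 896 and 710 in knockout libraries (log2 fold change 0.25, limma adjusted p = 0.393). Cyb5a, which encodes cytochrome b5, an electron donor, had a log2 fold change of 0.21 and an SE of 0.10 (limma adjusted p = 0.323), and Fdx1, the mitochondrial ferredoxin, one of 0.06 (limma adjusted p = 0.847). Of 13 tested genes of this list 0 passed in limma (5 at an unadjusted p under 0.05, beside 18% of all genes tested). Those with the smallest p were Hmox1, the heme-degrading oxygenase, at -0.75 (limma adjusted p = 0.103), and Fech, the last enzyme of heme synthesis, at 0.49 (limma adjusted p = 0.133). Among 9 tested eicosanoid partners 0 passed in limma. The phospholipase gene Pla2g4a, at -0.29, was the 1 with an unadjusted p under 0.05, beside 18% of all genes tested.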

How the data were processed

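Per the labels' protocols, mammary gland RNA was extracted with a Trizol reagent and sequenced from Illumina TruSeq RNA libraries. The submitters' processing notes list Bowtie 0.12.2 and 3 builds (hg38, GRCm38, mm10) without saying what each was used for. The deposited values are a normalised signal: in each library 100% of them are whole multiples of 1 step (0.9712 to 1.0274), within a tolerance of 1e-06 of the value, as read counts divided by 1 factor are. The scaling method was not given in the sources used here. No count-based test was run, because the rule applied for accepting recovered reads does not admit steps so close to 1. No listed gene is at 0 in all 4 libraries.

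Libraries were grouped by their titles. Genes with a value of at least 1 in at least 2 libraries were tested by genotype on the scale log2(value + 1). limma 3.58.1 (R 4.3.3) was run with its trend and robust options and 2 residual degrees of freedom, with Benjamini-Hochberg adjustment over all genes tested and a threshold of 0.05. Log2 fold changes (knockout minus control) are on this scale and are too small for genes with low values, and intervals are 95% from the moderated fit. The labels do not say that libraries came from separate animals, so p-values measure only how these samples vary, and that variation may be technical. The procedure was tested on simulated data in which all genes had the same variation beyond counting and no library was made to differ from its group. That test therefore does not cover a control further from the knockouts than the other, such as control 2, or genes that vary more within a group. Precision is limited by 2 libraries per group, and no counting interval was computed.

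All 49 genes were found in GENCODE M21 (GRCm38), 43 of them with the same coordinates. Coordinates are those of the files. Shared stretches of 50 bases were counted between its transcripts, and coding sequences were aligned with Biopython 1.88. Members, role groups and lists were chosen with earlier results of these data known. Genes named by rule were those past the threshold, the Cyp3a genes, those with a mean of at least 50, the highest of each role group without one, and from each list the genes that passed or the 2 with the smallest p. Other genes were named after their values were seen. The alternatives were another pseudocount, 2 other filters, quantile normalisation, equal totals, each library left out and the replicate number as a block.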

Additional observations from a re-analysis of the deposited data

How the results depend on the processing

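The number of P450 genes past the limma threshold, 1, was 2 with no filter on low values (Cyp3a57 and Cyp27a1) and ran from 0 to 6 over the fits without 1 library. It was 0 without knockout 1 (4 at an unadjusted p under 0.05) and 0 without knockout 2 (3), and 6 without control 1, where a lone control is assumed to vary like the other group. Over all genes the count of 131 was 33 with a pseudocount of 0.1, 332 with no filter, 66 with a filter of 10, 257 with quantile normalisation and 367 with the replicate block, and ran from 0 to 2361 over the fits without 1 library. The same-numbered libraries share only a number: their deviations from the group means correlated at 0.118, a single value, since with 2 libraries a group the second pair gives the same value by construction. With the replicate block 1 P450 gene passed, Cyp3a57 (limma adjusted p = 0.019). Cyp3a57 passed in every fit but those without a knockout library, with log2 fold changes from 4.28 to 5.48 and limma adjusted p from 0.00196 to 0.732. Over the same settings the adjusted p ran from 0.0339 to 0.828 for Cyp1b1, 0.0448 to 0.867 for Cyp24a1, 0.0346 to 0.732 for Cyp2d22 and 0.0386 to 0.732 for Cyp4f16.

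Of 207 combinations of 21 named P450 genes and an alternative, 193 kept direction and side of the threshold, 6 passed the threshold where the main fit did not, 2 no longer passed, and 6 changed sign, all of genes that did not pass. With equal totals Cyp39a1 was 0.023, and with quantile normalisation Cyp46a1 was -0.049. Over the fits without 1 library, Cyp39a1 ran from -0.061 to 0.035, Cyp2j6 from -0.11 to 0.59 and Cyp20a1 from -0.27 to 0.0017, each with the sign change without control 1, and Cyp24a1 ran from -0.16, without control 2, to 1.52. The log2 ratio of Cyp3a57 to Cyp3a13 was higher in the knockouts in the other settings run and -0.94 with a pseudocount of 0.1, since Cyp3a13 was listed at 0 in both controls. The ratio without Cyp3a13 could not be computed, as no other Cyp3a gene was listed. The causes of the other changes were not tested.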

Other observations

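Of 23 tested genes of the metabolism and transport of foreign compounds, 0 passed the threshold in limma. The list was not limited to conjugation and export, as it also held Fmo1, Fmo2, Fmo5, Aox1, Ces1d and Nqo1. An unadjusted p under 0.05 was reached by 5 (Gstm1, Gstm2, Fmo1, Fmo2 and Ces1d), all higher, where 10.3% of all genes tested did so. Of the 23, 20 had a positive log2 fold change, and the median of the list was 0.53 beside 0.0043 for all genes tested. Both knockouts lay above both controls for 10 and below them for 1, against 25.5% and 25.6% of all genes tested. Knockout 1 was highest and control 2 lowest for 12 of the 23, and the share of all genes with that pattern was not computed. It was seen in 1 of 10 general luminal, 0 of 10 secretory luminal and 0 of 9 basal markers. Other lists had it more often, with 10 of 10 adipocyte, 10 of 10 fibroblast, 9 of 10 endothelial and 7 of 10 macrophage markers. All 10 markers of each of these 4 cell types had a positive log2 fold change, with medians of 0.99, 0.79, 0.62 and 0.52. Their part in the levels of the 23 genes was not tested. The glutathione transferase gene Gstm1 had 391 and 348 in control and 742 and 566 in knockout libraries (log2 fold change 0.81, SE 0.17, limma adjusted p = 0.0774), and Gstm2 had 86.3 and 47.8 against 190 and 128 (log2 fold change 1.27, limma adjusted p = 0.137). How far reads are shared between Gstm genes was not measured. Of the 5 P450 pseudogenes, the highest was Cyp4f41-ps, at 18.5 and 13.9 in control and 5.97 and 10.7 in knockout libraries.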
